A study of Mus musculus with 5 samples.

Results

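Natural killer (NK) cells and type 1 innate lymphoid cells (ILC1s) are lymphocytes without antigen receptors that answer IL-12, IL-15 and IL-18 with interferon-γ, chemokines and, in NK cells above all, cytotoxic granules. They share activating and inhibitory lectin-like receptors and the transcription factor T-bet, and mouse NK cells are usually told from ILC1s by *Eomes*, Ly49 receptors and granule genes. Group 2 innate lymphoid cells (ILC2s) of the lung depend instead on GATA3, carry the IL-33 receptor ST2, encoded by *Il1rl1*, and make IL-5, IL-13 and amphiregulin. The cells described here were found in a library of sorted naïve ILC2s and were selected on UMIs (unique molecular identifiers, each counting 1 captured RNA molecule) of 10 genes. A cell was taken when it had UMIs of at least 3 of *Klrd1*, *Xcl1*, *Nkg7*, *Tyrobp*, *Cd160*, *Klrk1*, *Ncr1*, *Tbx21* and *Fcer1g* and no UMI of *Il1rl1*. Of the 6389 naïve cells that passed the filters, 155 met this rule, which is 2.43% (exact Clopper-Pearson 95% interval 2.06 to 2.83), out of 16530 cells in the whole series. They are called NK- or ILC1-like cells below, and they were compared with the 4759 naïve cells that had *Il1rl1* UMIs and none of the 9 genes, called *Il1rl1*+ cells.

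All libraries held lung cells of female C57BL/6 wild-type mice aged 4 to 8 weeks, with the cells of 5 mice pooled in each, sorted as CD45+ Thy1.2+ CD127+ ST2+ cells without lineage markers. The lineage antibodies included CD3, CD4, CD8, TCRβ, NK1.1 and CD11b, so the sort was set against T cells and NK cells. The naïve library came from mice with neither tumour nor activation. The other 4 libraries came from mice with a subcutaneous TC1 tumour, taken at week 2 or week 3, and were sequenced directly (ta-non-activated) or once the cells had spent 7 days in TSLP, rmIL-33 and rhIL-2 (ta-activated). The deposited naïve matrix held 6953 barcodes and 33522126 UMIs. There is 1 naïve library, so no difference below has a replicate check or a test. Levels are in CPM, the UMIs of a gene summed over a class of cells per 1000000 UMIs of that class, and a log2 ratio is taken after adding 5 CPM to both levels. Intervals are 95%, exact Poisson for levels and conditional binomial for ratios, and cover counting error only, not differences between mice. A summed level does not tell more cells with a transcript from more transcripts per cell, so the number of cells with a UMI is given for some genes. Where it is not given, a level may rest on few cells.

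The 9 genes of the rule describe the cells and are no finding. *Nkg7*, a granule membrane protein, had UMIs in 138 of the 155 cells, *Klrk1*, the receptor NKG2D, in 131, and the signalling adaptor *Fcer1g* in 118. The chemokine *Xcl1* was seen in 79 cells, *Tbx21* (T-bet) in 72, *Klrd1* (CD94) in 71, *Ncr1* (NKp46) in 58, the adaptor *Tyrobp* in 51 and *Cd160* in 46. Exactly 3 of the 9 genes were detected in 47 cells, 4 in 31, 5 in 20, 6 in 18, 7 in 24, 8 in 12 and all 9 in 3. The 5 marker genes of the label were therefore all present, but 3 of them in fewer than 80 of the 155 cells. *Eomes*, which the rule did not use and which marks NK cells, was detected in 10 cells. UMIs of *Cd3d*, *Cd3e*, *Trac* or *Trdc*, which mark T cells, were detected in 53. The members were thus mixed in these markers, and the groups among them are described below.

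Upstream sequences of 2 rule genes are shown because they hold the core letters bound by the regulators of this programme, T-box proteins such as T-bet and EOMES and Runx proteins such as RUNX3. Capitals mark the T-box core GTGTGA and the Runx letters TGTGGTT, or AACCACA where the Runx letters lie on the other strand. Both are stretches of 200 bases, from 250 to 51 bases before the RefSeq gene start on GRCm38.p6, written on the strand of the gene.
*Xcl1*, chr1:164935573-164935772, minus strand: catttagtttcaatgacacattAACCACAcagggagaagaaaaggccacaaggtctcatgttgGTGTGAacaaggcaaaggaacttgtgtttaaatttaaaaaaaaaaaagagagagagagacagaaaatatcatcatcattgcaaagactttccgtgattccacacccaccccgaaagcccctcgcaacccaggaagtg
*Ncr1*, chr7:4337465-4337664, plus strand: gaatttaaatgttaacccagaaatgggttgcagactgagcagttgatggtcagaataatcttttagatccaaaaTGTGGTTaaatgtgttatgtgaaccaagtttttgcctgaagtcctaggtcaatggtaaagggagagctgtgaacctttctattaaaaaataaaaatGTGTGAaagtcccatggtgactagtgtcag
The Runx letters began 228 bases before the start in *Xcl1* and 176 bases before it in *Ncr1*, and the T-box core 187 and 80 bases before it. On either strand, the T-box core occurred in 14.5% and the Runx letters in 5.27% of the 32851 RefSeq promoters of 300 bases, which reach from 250 bases before to 50 bases after the gene start. Of the 24 genes formed by the 9 rule genes and the 15 genes with the largest ratios below, 17 had a promoter in the table. The T-box core was in 5 of these 17 (*Cd160*, *Il12rb2*, *Ncr1*, *Nkg7* and *Xcl1*), and the Runx letters were in 5 (*Cd160*, *Gzma*, *Klrk1*, *Ncr1* and *Xcl1*). Of the 15 genes with the smallest ratios, all 15 had a promoter, *Pparg* alone held the T-box core and 0 held the Runx letters. These matches are letters in a window, and binding was not measured.

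Over the genes the rule did not use, 690 of 6504 genes with at least 20 CPM in either class were at least 2-fold higher in the NK- or ILC1-like cells (10.6%) and 367 were at least 2-fold lower (5.64%). The median log2 ratio of the 6504 genes was 0.21. In each gene list below, the counts are of the genes that reached 20 CPM in either class, and a low gene that reached it through 1 class alone had to differ, so these counts describe the classes and support nothing further. The 155 cells carried 913242 UMIs in all, so that 1 UMI is 1.09 CPM, and the *Il1rl1*+ cells carried 23972566. Median UMIs per cell were 4804 in the NK- or ILC1-like cells (1657 to 34529) and 4535 in the *Il1rl1*+ cells (625 to 22535). Median mitochondrial shares were 1.51% and 2.43%. Of the 155 cells, 2 had more UMIs than any *Il1rl1*+ cell.

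The 15 genes with the largest log2 ratios were *Gzma*, *Ms4a4b*, *Gramd3*, *Cd7*, *Ccl5*, *Il12rb2*, *Ccl4*, *Klrb1b*, *Gimap4*, *Ifitm1*, *Car2*, *Klrc1*, *Ifng*, *Btbd11* and *Aff3*, from 6.58 for *Gzma* to 4.803 for *Aff3*. *Ms4a4b*, a membrane protein of lymphocytes, had 729 CPM (interval 675 to 787) against 3.55 CPM and UMIs in 129 of the 155 cells, and the small lymphocyte GTPase *Gimap4* had 396 against 5.38 CPM with UMIs in 108. These were the most widely shared of the 15. Others rested on few cells. *Gzma*, a granule protease, had 483 against 0.0834 CPM (log2 ratio 6.58, interval 6.29 to 6.89) but UMIs in 11 cells, *Ccl4* in 17 and *Ifitm1* in 4. Of the 182 *Ifitm1* UMIs, 83 came from a single cell, and of the 327 *Aff3* UMIs, 80 did.

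The mouse natural killer gene complex on chromosome 6 holds 24 genes of the *Klrb1*, *Klrc*, *Klrd*, *Klre*, *Klri*, *Klrk* and *Klra* families in these matrices, between 128609227 and 131247362 (GENCODE M21, GRCm38), and 22 of them lay outside the rule. Of these 22, 9 did not reach 20 CPM in either class. The other 13 reached it in the NK- or ILC1-like cells alone, with 0 to 1.96 CPM in the *Il1rl1*+ cells, so that their being higher followed from the filter. *Klrb1c*, which encodes NK1.1, the antigen of 1 of the sort's lineage antibodies, had 112 CPM (91.1 to 136) and UMIs in 63 cells, against 3 UMIs in the *Il1rl1*+ cells (0.125 CPM). *Klrb1b* reached 272 against 1.96 CPM, *Klrb1f* 143 against 0.375 CPM, and *Klrc1*, the inhibitory NKG2A, 162 against 0.125 CPM. *Klrc2* and *Klre1* had 92 UMIs each and 0 in the *Il1rl1*+ cells, which makes them at least 805-fold higher with a floor of 3 UMIs over that class. Of the Ly49 receptors, *Klra1*, *Klra3*, *Klra4*, *Klra7*, *Klra8* or *Klra9* was detected in 20 cells, *Klra9* in 10 of them at 48.2 CPM. *Klra5*, *Klra6* and *Klra10*, which had UMIs in 1 cell each, were not counted here. *Klrg1*, which activated ILC2s and mature NK cells carry, went the other way, with 14.2 against 70.0 CPM (log2 ratio -1.96). In the whole list of NK receptors and adaptors, 15 of 19 genes were higher, 1 was lower and the median log2 ratio was 3.18, or 3.30 with genes at 0 set to their bound. The adaptor *Hcst* (DAP10), which pairs with NKG2D, was at 488 and 286 CPM, under the 2-fold limit.

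**Figure D1:**
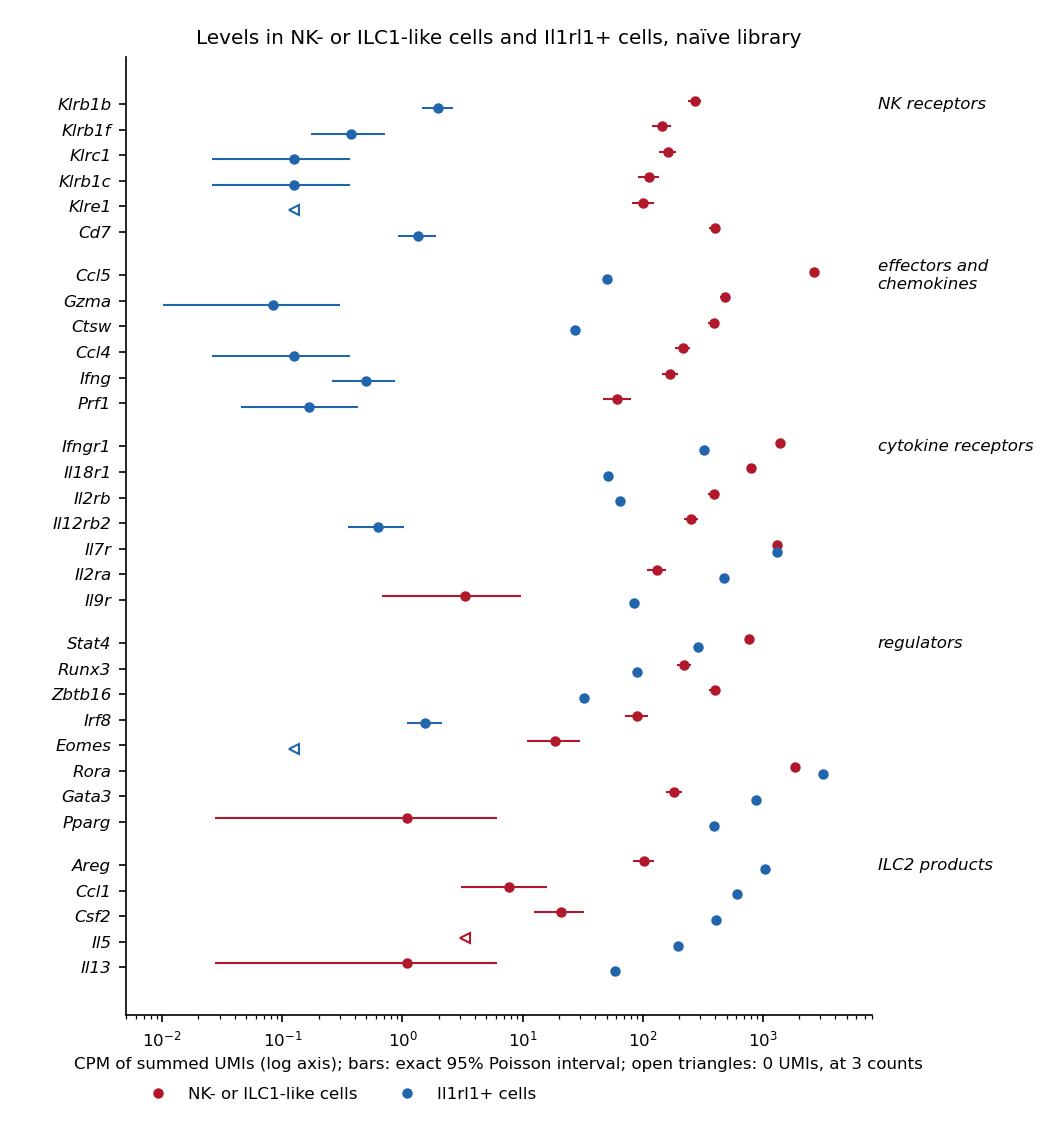
Levels of 32 genes in the 155 NK- or ILC1-like cells (red) and the 4759 *Il1rl1*+ cells (blue) of the naïve library, as CPM of summed UMIs on a log axis, with exact 95% Poisson intervals and open triangles where a class had 0 UMIs, drawn at 3 counts. Receptor, effector and chemokine genes lie to the right in red, ILC2 products lie to the right in blue, and *Il7r* coincides at 1302 and 1310 CPM.

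Among effector genes, 7 of 10 were higher, 0 were lower, and the median log2 ratio was 3.56. The chemokine *Ccl5* gave the most UMIs of the cytokine and chemokine list, 2649.9 CPM (2545 to 2758) against 50.2 CPM, in 90 of the 155 cells, with 221 UMIs in the richest cell. The cathepsin *Ctsw* was at 391 against 27.3 CPM and was spread over 121 cells. The granzyme inhibitors *Serpinb9* and *Serpinb6b* were at 302 against 22.2 CPM and at 307 against 22.3 CPM. Perforin (*Prf1*) had 61.3 against 0.167 CPM in 25 cells, *Gzmb* 76.7 against 0.417 CPM in 16 and Fas ligand (*Fasl*) 73.4 against 0.626 CPM in 39. The granule proteoglycan *Srgn* was close in both classes, at 1429 and 1839 CPM. Interferon-γ (*Ifng*) had 169 CPM (143 to 197) against 0.501 CPM and was seen in 58 cells. At an equal depth of 2000 UMIs per cell it was in 40 of 153 NK- or ILC1-like cells (26.1%) and in 2 of 4632 *Il1rl1*+ cells (0.0432%).

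Cytokines of ILC2s were low or absent. *Il5* and *Il4* had 0 UMIs in the 155 cells, which allows up to 3.28 CPM, against 197 and 30.1 CPM in the *Il1rl1*+ cells. *Il5* was thus at least 59.9-fold lower, and *Il4* at least 9.16-fold lower. *Il13* had 1 UMI (1.09 against 58.2 CPM), *Csf2*, encoding GM-CSF, had 20.8 against 410 CPM, the chemokine *Ccl1* 7.67 against 607 CPM and amphiregulin (*Areg*) 102 against 1045 CPM. *Areg* UMIs came from 27 cells. In the cytokine and chemokine list, 4 of 17 genes were higher (*Ccl3*, *Ccl4*, *Ccl5* and *Ifng*), 9 were lower and the median log2 ratio was -1.46. Lymphotoxin β (*Ltb*) was at 503 and 608 CPM, under the 2-fold limit.

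Cytokine receptors moved in both directions. Of 18 cytokine receptor genes, 7 were higher and 5 were lower, and the median log2 ratio was 0.31. The IL-12 receptor chain *Il12rb2* had 251 against 0.626 CPM (log2 ratio 5.51, 5.19 to 5.82) with UMIs in 73 cells, and its partner *Il12rb1* 25.2 against 8.43 CPM. The IL-18 receptor chains *Il18r1* and *Il18rap* were at 794 against 51.6 CPM and at 269 against 127 CPM. *Il2rb*, the chain shared by the IL-2 and IL-15 receptors, was at 389 against 64.7 CPM, *Il21r* at 81.0 against 4.17 CPM and the interferon-γ receptor chain *Ifngr1* at 1397 against 320 CPM, in 153 of the 155 cells. The lower ones were *Il2ra* (131 against 471 CPM), *Il10ra* (12.045 against 145), *Il17rb*, the IL-25 receptor (17.5 against 56.9), *Il9r* (3.28 against 83.7) and *Ifngr2*, the partner chain of *Ifngr1* (43.8 against 119). The IL-7 receptor *Il7r*, whose protein CD127 was part of the sort, was at 1302 and 1310 CPM, and the TSLP receptor chain *Crlf2* was at 48.2 and 48.1 CPM.

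Among regulators, *Gata3* had 183 against 872 CPM (log2 ratio -2.22, -2.45 to -2.01), with UMIs in 71 cells, and *Pparg*, a regulator of lipid metabolism in ILC2s, had 1 UMI against 388 CPM. *Rora*, needed for ILC2 development, was lower by less than 2-fold, at 1834 against 3184 CPM. Of 11 transcription factors of the type 1 list, 6 were higher and 1 was lower, with a median log2 ratio of 1.25. *Stat4*, which acts below the IL-12 receptor, was at 764 against 290 CPM, *Runx3* at 221 against 90.1 CPM, *Irf8* at 89.8 against 1.54 CPM, *Irf1* at 193 against 49.1 CPM and *Ikzf2* (Helios) at 712 against 279 CPM. *Zeb2*, which rises in mature NK cells, was lower, at 44.9 against 109 CPM. *Id2*, *Ets1* and *Tox*, used by all innate lymphoid lineages, were close, at 528 and 567 CPM, 766 and 758 CPM, and 973 and 904 CPM. *Zbtb16* (PLZF), which marks innate lymphoid precursors and innate-like T cells, was at 396 against 32.2 CPM, with 67 of its 362 UMIs in a single cell.

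In the list of 30 ILC2 genes, 15 of 24 were lower, 8 lay within 2-fold and 1, the aryl hydrocarbon receptor *Ahr*, was higher, at 111 against 35.5 CPM. The median log2 ratio was -1.80. *Ccr8* was at 41.6 against 294 CPM, *Calca* at 46.0 against 233 CPM and *Alox5* at 2.19 against 43.0 CPM. *Thy1*, whose product Thy1.2 the sort required, was at 293 and 242 CPM, and *Icos* was at 612 and 565 CPM. The 15 smallest ratios of all genes belonged to *Thsd4*, *Pparg*, *Kcnd2*, *Ccl1*, *Dach2*, *Il5*, *Slc7a8*, *Plcl1*, *Stxbp6*, *Pard3*, *Pcsk1*, *Apbb2*, *Ptpn13*, *Ypel2* and *Hs3st1*, from -6.04 to -4.06. Their median gene length was 173 kb, against 30.0 kb over 6500 genes and 12.6 kb for the 15 genes with the largest ratios, and the Spearman correlation of the log2 ratio with gene length was -0.12 across the 6500 genes, which are not independent replicates. The part of gene length in these ratios was not tested.

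Genes that separate ILC1s from NK cells pointed in both directions. In the NK-leaning list 11 of 12 genes were higher and 1 was lower, with a median log2 ratio of 3.36, or 5.22 with genes at 0 set to their bound. *Klf2*, which supports exit from tissue, was at 499 against 36.7 CPM in 86 cells, and *S1pr1*, which guides cells out of tissue, at 115 against 5.59 CPM in 45 cells. *Ly6c2* had 91 UMIs in 27 cells and 0 in the *Il1rl1*+ cells, at least 796-fold higher. *Eomes* had 17 UMIs in 10 cells and 0 in the *Il1rl1*+ cells, at least 149-fold higher, and *S1pr5* and *Itgam* (CD11b) had UMIs in 1 cell each. In the ILC1-leaning list 4 of 14 genes were higher, 3 were lower and 7 lay within 2-fold, with a median of 0.22, next to 0.21 for all genes. The *Il1rl1*+ cells had this list too, at 11988 CPM summed against 7454 CPM in the NK- or ILC1-like cells. Its ratios therefore cannot tell how far the members resemble ILC1s. At equal depth, 96.1% of the members had 2 or more ILC1-leaning genes and 26.1% had 2 or more NK-leaning genes. In the *Il1rl1*+ cells these shares were 99.8% and 1.30%. The integrin *Itga1* (CD49a) was at 66.8 against 2.04 CPM in 37 cells and *Cxcr3* at 140 against 0.334 CPM in 69 cells. *Cxcr6* and *Cd200r1*, both used by ILC1s and by ILC2s, were lower, at 323 against 661 CPM and 75.6 against 272 CPM, and *Tnfsf10* (TRAIL) was at 55.8 and 52.6 CPM. Of the genes of tissue residency and exit, 7 of 11 were higher, with a median log2 ratio of 2.48, and *Cd69* and *Cxcr6* were lower, *Cd69* at 295 against 749 CPM. Of 6 inhibitory receptor genes, 2 were higher and 2 were lower, with a median of 0.29, with *Ctla4* higher (117 against 10.8 CPM) and *Pdcd1* (PD-1) at 72.3 and 63.2 CPM.

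*Gzma* was found in few members, while other granule genes were also found outside them. Of the 25 cells with *Prf1* 9 had *Gzma*, as did 8 of the 16 with *Gzmb*, 5 of the 39 with *Fasl* and 10 of the 121 with *Ctsw*. Of the 11 cells with *Gzma* UMIs, 10 had *Klrb1c*, 5 had *Eomes* and 2 had *Itga1*, against 63, 10 and 37 of all 155 members. Of the rule genes, which every member was selected for, all 11 had *Klrd1*, *Nkg7*, *Tyrobp*, *Klrk1* and *Fcer1g*, 8 had *Ncr1* and 2 had *Xcl1*, against 71, 138, 51, 131, 118, 58 and 79 of all 155 members, and these counts are partly fixed by the selection. Their summed *Ccl5* level was 20264 CPM (19001 to 21589), their *Ccl4* level 2813 CPM, *Gzmb* 1163 CPM, *Prf1* 698 CPM and *Irf8* 1015 CPM. They had 0 UMIs of *Areg* and *Il23r*, 9 UMIs of *Il7r* in 2 cells and 3 of *Gata3*. Of the 10 cells with *Eomes* UMIs, 8 had *Klrb1c* and 1 had *Itga1*. Taking *Eomes*, *Gzma* and the *Klra* genes counted above together gave 28 cells, of which 16 also had a UMI of *Cd3d*, *Cd3e*, *Trac* or *Trdc*. In these 28 cells *Rora* was at 613 CPM (494 to 752) and *Cxcr6* at 153 CPM (97.2 to 230), against 2074 CPM (1973 to 2179) and 356 CPM (315 to 401) in the other 127. *Xcl1*, which the rule used, was found in 79 cells, of which 49 had *Cxcr3*, 44 had *Klrb1c* and 24 had *Itga1*. Over all 155 members these 3 genes were in 69, 63 and 37 cells.

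**Figure D2:**
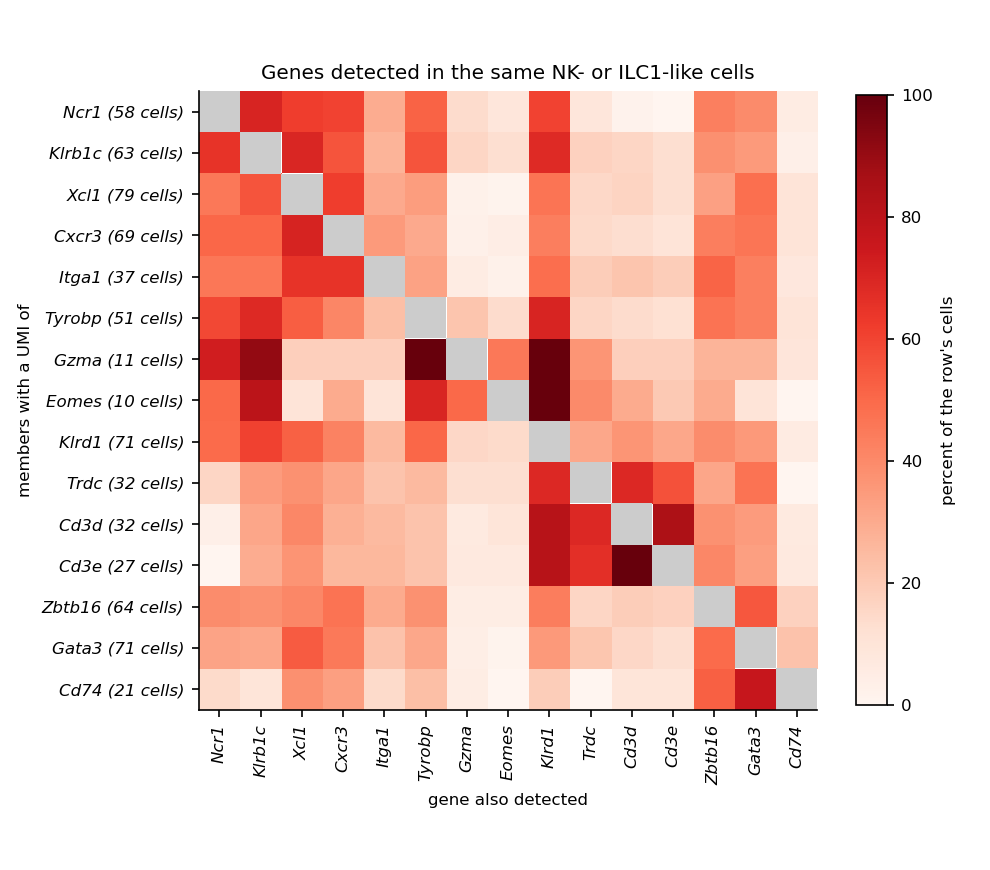
Percent of the NK- or ILC1-like cells with a UMI of the row's gene that also had a UMI of the column's gene, for 15 genes, with the number of cells beside each row and the diagonal in grey. The rows of *Gzma* (11 cells) and *Eomes* (10 cells) are darkest at *Klrd1* and pale at *Xcl1*, and the row of *Ncr1* (58 cells) is palest at *Cd3d* and *Cd3e*, where *Klrd1*, *Xcl1*, *Ncr1* and *Tyrobp* were used by the rule.

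T cell receptor and CD3 transcripts divided the members a second time. Of 9 T cell receptor and CD3 genes, 5 were higher and 0 were lower, with a median log2 ratio of 1.14 and a summed level of 1843 against 1095 CPM, to which *Trbc2* gave the most. *Cd3g*, *Trbc2* and *Trbc1* were at 209, 493 and 233 CPM in the *Il1rl1*+ cells and at 187, 570.5 and 457 CPM in the NK- or ILC1-like cells, within 2-fold. Of the 10-gene list, 2 or more genes were found at 2000 UMIs per cell in 85 of 153 NK- or ILC1-like cells (55.6%) and in 1925 of 4632 *Il1rl1*+ cells (41.6%). *Cd3d*, *Cd3e*, *Trac* and *Trdc* did separate them and were chosen as a shorter list after their values had been seen. *Cd3d* was at 122 against 3.92 CPM, *Cd3e* at 92.0 against 9.93 CPM, *Trac* at 46.0 against 4.797 CPM and *Trdc*, the constant gene of the δ chain, at 120 against 4.67 CPM. At least 1 of the 4 was detected in 53 of the 155 cells, and at least 2 in 31. At least 1 was detected in 304 of the 4759 *Il1rl1*+ cells (6.39%). Of the 32 NK- or ILC1-like cells with *Trdc* UMIs, 18 had *Cd3e*, so the 53 cells are not called T cells. *Cd4* and *Cd8a* had 0 UMIs in both classes, and *Foxp3* and *Cd8b1* had 0 in the NK- or ILC1-like cells. None of the 58 cells with *Ncr1* UMIs had a UMI of *Cd3e*, 1 had *Cd3d*, 5 had *Trdc* and 5 had *Trac*, so that 11 had at least 1 of the 4 genes. All 27 cells with *Cd3e* lay among the 97 without *Ncr1*. In a list of other T cell genes, 5 of 6 were higher, with a median of 2.53. Among them *Cd28* and *Cd2*, which T cells and some innate lymphocytes share, were found in more cells than the CD3 genes, *Cd28* at 355 against 15.4 CPM in 91 cells and *Cd2* at 170 against 6.01 CPM in 80 cells.

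The 53 cells with such transcripts and the 102 without them differed in genes that neither the split nor the rule used. *Klrb1b* was at 67.5 CPM (42.3 to 102) with and 385 CPM (336 to 438) without, *Klrb1f* at 33.8 and 204 CPM, and *Car2*, carbonic anhydrase 2, at 39.9 and 286 CPM. *Ccl5* went the other way, at 4847 CPM (4611 to 5092) with and 1432 CPM (1336 to 1532) without, as did *Gramd3*, at 890.2 and 201 CPM, the thymocyte signalling gene *Themis*, at 190.3 and 27.2 CPM, and *Cd3g*, at 433 and 51.1 CPM. All 182 *Ifitm1* UMIs were in 4 of the cells with such transcripts. *Il2rb*, *Cd28*, *Trbc2* and *Gata3* had overlapping intervals. Against the *Il1rl1*+ cells, 768 genes were at least 2-fold higher and 365 lower when these 102 cells were used alone, and *Ccl5*, *Il12rb2*, *Ifng* and *Klrb1c* had levels of 1432, 211, 203 and 131 CPM in them.

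**Figure D3:**
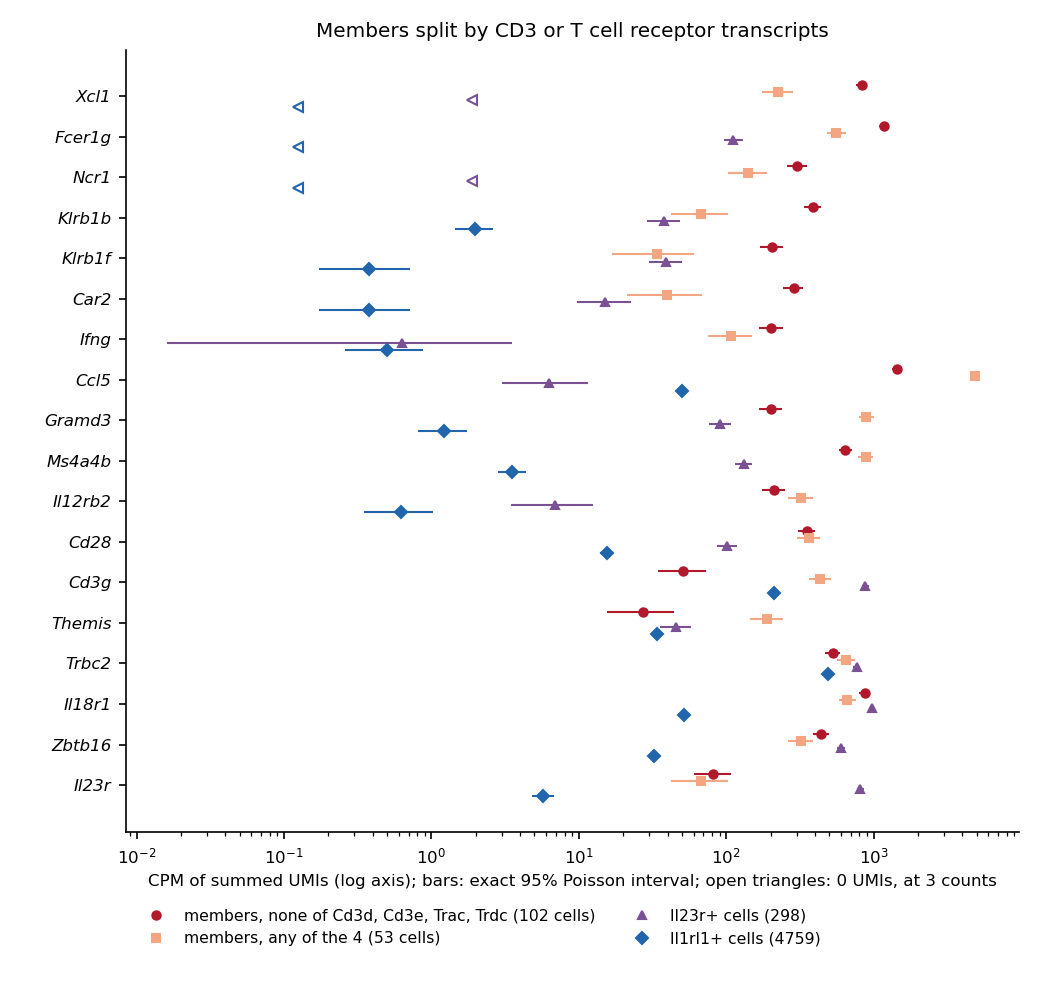
Levels of 18 genes in NK- or ILC1-like cells without (red circles, 102 cells) and with (orange squares, 53 cells) UMIs of *Cd3d*, *Cd3e*, *Trac* or *Trdc*, in *Il23r*+ cells (purple triangles, 298 cells) and in *Il1rl1*+ cells (blue diamonds), as CPM on a log axis with exact 95% Poisson intervals, and open triangles at 3 counts for 0 UMIs. For *Klrb1b*, *Klrb1f*, *Car2* and *Ifng* the red circles lie to the right of the orange squares. For *Ccl5*, *Gramd3*, *Cd3g* and *Themis* the red circles lie to the left. *Xcl1*, *Fcer1g* and *Ncr1* were used by the rule. *Il23r* is highest in the purple triangles because those cells were selected for it.

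The naïve library also held 298 cells with *Il23r* UMIs, no *Il1rl1* UMI and too few of the 9 genes for the rule, with a median of 5151 UMIs. They shared *Il18r1* (973 CPM), *Zbtb16* (597 CPM), *Klf2* (476 CPM) and a low *Gata3* (130.0 CPM) with the NK- or ILC1-like cells. *Ifngr1* was at 1257 CPM in them and 1397 CPM in the NK- or ILC1-like cells, and *S1pr1* at 178 and 115 CPM. At equal depth, *Cd7*, *Il2rb* and *Ms4a4b* were in 29.3%, 32.8% and 20.2% of the *Il23r*+ cells. These genes were in 41.2%, 52.9% and 71.2% of the NK- or ILC1-like cells. Their shares in the *Il1rl1*+ cells were 0.0864%, 10.6% and 0.540%. The *Il23r*+ cells had 6.31 CPM of *Ccl5*, 6.94 of *Il12rb2*, 0.631 of *Ifng* and 0 UMIs of *Gzma*. *Cd3e* was at 468 CPM (434 to 502) and *Trdc* at 385 CPM (356 to 417) in them, against 92.0 and 120 CPM over all 155 NK- or ILC1-like cells. Of the NK- or ILC1-like cells, 13 had *Il23r* UMIs, at 76.7 CPM in all. Of 4 genes of the type 17 and ILC3 list *Il23r* and *Il1r1* were higher, with a median log2 ratio of 1.33.

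Class II genes came from few cells. *Cd74* was at 314 against 18.4 CPM and *H2-Aa* at 99.6 against 5.01 CPM, and 5 of 5 class II genes were higher, with a median log2 ratio of 3.04 and a summed level of 589 against 39.4 CPM. However, 2 or more of them were detected in 19 of the 155 cells, and at 2000 UMIs in 12 of 153 (7.84%) against 30 of 4632 *Il1rl1*+ cells (0.648%). Without these 19 cells, removed for these genes, *Cd74* was at 15.9 CPM and *H2-Aa* had 0 UMIs. The 19 cells had a median of 6095 UMIs, and they included 6 cells with UMIs of *Cd3d*, *Cd3e*, *Trac* or *Trdc* and 3 of the 4 cells with *Ifitm1*. Of 5 dendritic cell genes, *Ccr7* and *Zbtb46* were higher, and the median was 0.98. The dendritic cell list summed to 417 against 258 CPM, with *Cst3*, which many cell types express, the most abundant at 172 CPM. Its defining markers *Flt3*, *Clec9a* and *Siglech*, and the class II activator *Ciita*, had 0 UMIs in the 155 cells. The part of antigen-presenting cells in the class II levels was not tested.

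Cell-cycle genes were higher in all 12 cases, with a median log2 ratio of 2.76, and again came from few cells. UMIs of 2 or more of them were detected in 16 of the 155 cells, which had a median of 9255 UMIs and included the 2 cells above the *Il1rl1*+ range. *Mki67* was at 90.9 against 7.59 CPM and *Stmn1* at 287 against 16.0 CPM, and without these 16 cells, which were removed for these genes from 1 class alone, their log2 ratios were -0.46 and -0.52. At 2000 UMIs, 12 of 153 cells (7.84%) and 20 of 4632 *Il1rl1*+ cells (0.432%) had 2 or more.

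Defining markers of myeloid cells, granulocytes and stromal cells were at or near 0. Of 12 myeloid genes, 9 had 0 UMIs, among them *Csf1r*, *C1qa*, *Adgre1* and *Spi1*, and all 12 summed to 13.1 against 4.17 CPM, with *Ms4a6c* the most abundant at 7.67 CPM. All 5 granulocyte genes had 0 UMIs. Of 7 B cell genes 4 had 0 UMIs, with *Ms4a1* and *Cd79a* among them, while *Ighm*, the most abundant, was at 105 against 51.9 CPM, within 2-fold, and the list summed to 122 against 55.9 CPM. *Cpa3* and *Kit* of the mast cell and basophil list were lower, at 5.47 against 33.2 CPM and 136 against 351 CPM, and *Mcpt4*, *Mcpt8*, *Ms4a2* and *Fcer1a* had 0 UMIs. That list summed to 151 against 393 CPM. Of 8 endothelial genes 4 had 0 UMIs, *Pecam1*, which leukocytes also carry, was at 143 against 59.8 CPM, *Calcrl* was lower, and the sums were 239 and 406 CPM. Stromal genes summed to 2.19 against 8.89 CPM. Epithelial genes summed to 63.5 against 313 CPM, with *Scgb1a1* and *Epcam* lower. The club cell gene *Scgb1a1* was at 53.7 against 257 CPM, and *Sftpc*, a gene of alveolar cells, had 2 UMIs. To look at stray transcripts, 34 naïve cells with 3 or more endothelial genes at 2000 UMIs were used, with a median of 4386 UMIs. NK- or ILC1-like cells were left out of these 34 beforehand. Low shares of their genes in the 34 cells are therefore partly fixed by the selection. At 2000 UMIs 0 of the 34 had UMIs of *Ccl5*, *Ifng*, *Il12rb2*, *Cd7*, *Cd28* or *Ms4a4b*, which allows a share of up to 8.82%, against 73, 40, 50, 63, 60 and 109 of the 153 NK- or ILC1-like cells. Other genes were not at 0 there. *Klf2*, which endothelial cells express, was in 14 of the 34 (41.2%) against 64 of the 153 (41.8%), and *S1pr1*, which they also express, in 13 of the 34 (38.2%) against 19 of the 153 (12.4%). Among lymphocyte genes, *Cd3g* was in 4 of the 34 (11.8%) against 33 of the 153 (21.6%), with overlapping intervals (3.30 to 27.5 and 15.3 to 28.9). *Zbtb16* was in 2 of the 34 against 44 of the 153, and *Il2rb* and *Il18r1* were in 1 each against 81 and 96. These 34 cells also had *Il1rl1* (463 CPM) and *Gata3* (368 CPM), so they are not free of ILC2 transcripts. Interferon-induced genes were higher in 5 of 7 cases, with a median log2 ratio of 1.42, and *Ifi27l2a* was at 52.6 against 2.25 CPM in 14 cells. The 10 genes of dissociation and early response had a median log2 ratio of 0.019. Of these, 7 lay within 2-fold, *Hspa1a* and *Hspa1b* were higher, at 300.03 against 94.3 CPM and 452 against 180.04 CPM, and *Fosb* was lower, at 529 against 1181 CPM. The part of cell handling in these levels was not tested.

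Levels of the same genes were taken in cells on both sides of the border of the rule. Small gaps between neighbouring groups are not read as differences. The 47 cells with exactly 3 of the 9 genes, just inside, had 1182 CPM of *Ccl5*, 253 of *Il2rb*, 70.6 of *Il12rb2*, 11.1 of *Klrb1c* and 260.1 of *Gata3*. The 128 cells without *Il1rl1* and with exactly 2 genes, just outside, had 566, 192, 55.3, 5.53 and 325 CPM of the same genes. At the other end, the 39 cells with 7 or more of the 9 genes had 3999, 621, 556, 310.5 and 92.7 CPM. *Il23r* ran against this order, with 258 CPM at 2 genes, 208 CPM at 3 genes, 67.3 CPM at 4 and 0 UMIs in the cells with 5 or more. Another 34 naïve cells had 3 or more of the 9 genes together with *Il1rl1* UMIs. The 12 of them with 1 *Il1rl1* UMI had a median of 5869 UMIs, and the 22 with more had a median of 10392.5 UMIs, with *Ccl5* at 765 CPM, *Gata3* at 536 CPM and *Areg* at 914 CPM. Doublets were not called here, and their part in these 22 cells was not tested.

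**Figure D4:**
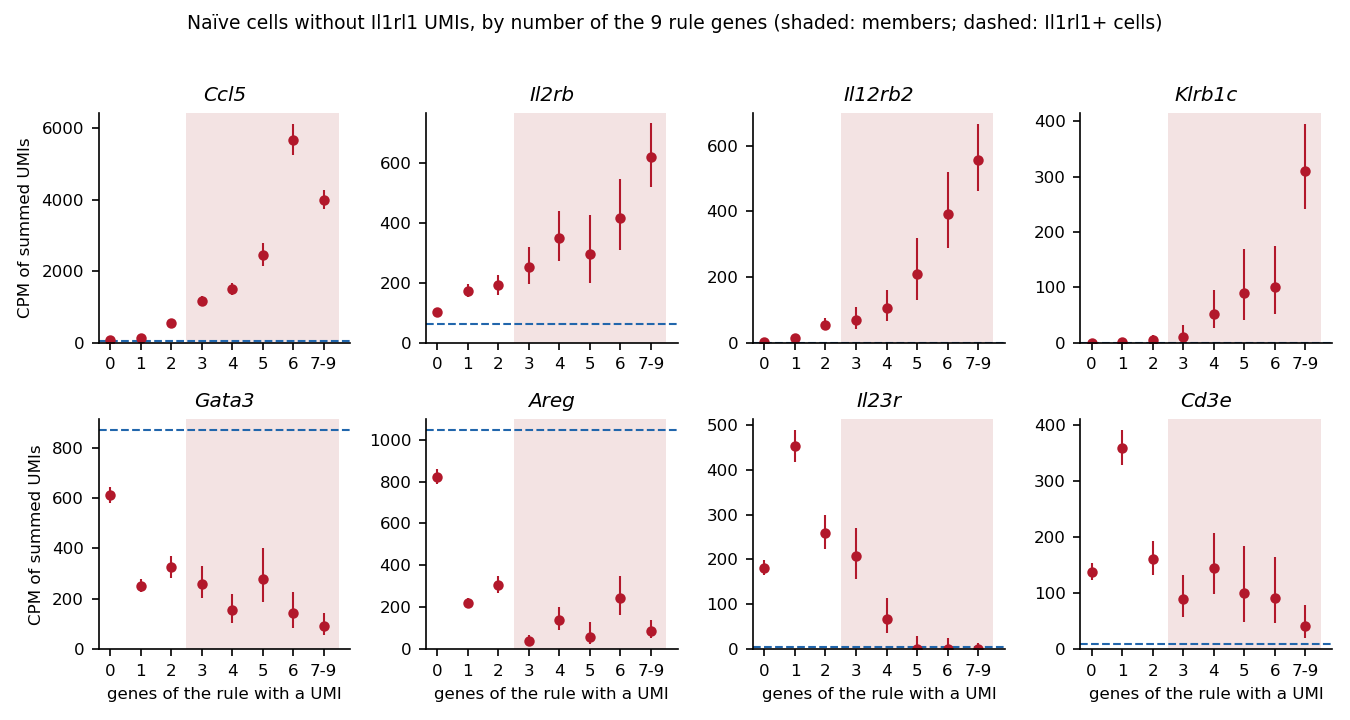
Levels of 8 genes in naïve cells without *Il1rl1* UMIs, grouped by how many of the 9 rule genes had a UMI, as CPM of summed UMIs with exact 95% Poisson intervals. Members of the class are shaded (3 genes or more) and the dashed line is the level in *Il1rl1*+ cells. *Il12rb2* and *Klrb1c* climb towards 556 and 310.5 CPM at 7 to 9 genes, *Gata3* is lowest there at 92.7 CPM, and *Il23r* and *Cd3e* peak at 1 gene.

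The same rule was applied to each of the other libraries, which differ in depth and came from mice with a tumour. The ta-non-activated libraries were, like the naïve one, sequenced without activation. It found 9 of 1823 cells at week 2 (0.494%, interval 0.226 to 0.935) and 9 of 1601 cells at week 3 (0.562%, 0.257 to 1.06) of the ta-non-activated libraries. In the ta-activated libraries it found 66 of 2895 cells at week 2 (2.28%, 1.77 to 2.89) and 1 of 3822 at week 3 (0.0262%, 0.000662 to 0.146). With every cell at 2000 UMIs the share was 1.90% in the naïve library. It was 0.387% at week 2 and 0.334% at week 3 without activation. After activation it was 1.56% at week 2, and 0 of 3714 cells at week 3, which allows up to 0.0808%. Cells with any *Il1rl1* UMI, which the rule leaves out, made up 80.9% of the naïve cells and between 14.99% and 48.3% of the cells of the other libraries. At 2000 UMIs per cell these shares were 67.4% in the naïve library, 10.6% and 19.5% at weeks 2 and 3 without activation, and 5.17% and 19.7% after it. Of the 155 naïve cells, 1 shared its barcode with a kept cell of another library, the ta-activated library of week 3.

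**Figure D5:**
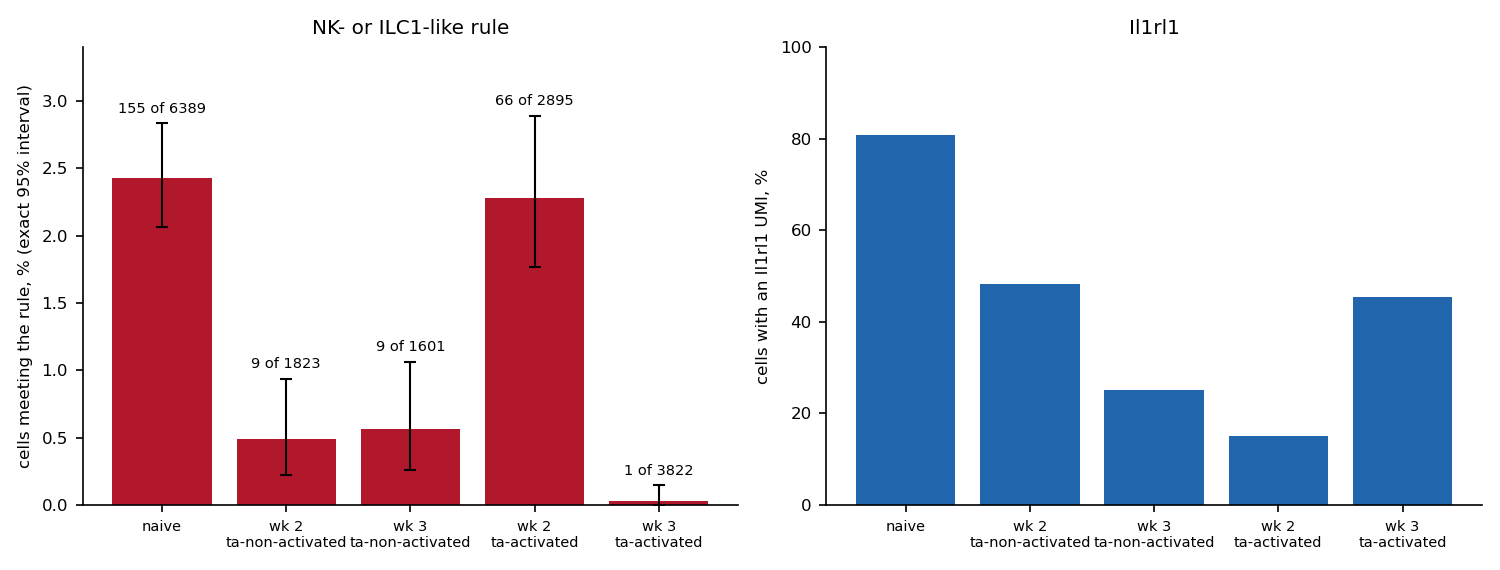
Percent of cells that met the rule for NK- or ILC1-like cells, with exact 95% binomial intervals and the numbers of cells (left), and percent of cells with an *Il1rl1* UMI (right), in the 5 libraries. The naïve library (2.43%) and the ta-activated library of week 2 (2.28%) stand above the other 3 on the left, and the naïve library is highest on the right, at 80.9%.

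Only the ta-activated library of week 2 had at least 20 such cells, and granzyme C gave many of their UMIs. *Gzmc* was at 28162 CPM in its 66 cells against 5.24 CPM in its 378 *Il1rl1*+ cells, and at 9.86 CPM, from 9 UMIs in 6 cells, in the naïve NK- or ILC1-like cells. *Gzmb* was at 6262 and *Ifitm1* at 5274 CPM, each in over 50 of the 66 cells, and *Cd3g* at 3492 CPM, against 76.7, 199 and 187 CPM in the naïve cells. *Ccl5* was at 85.1 CPM, *Gzma* at 2.87, *Klrb1c* at 6.32, *Tbx21* at 6.32 and *Zbtb16* at 0, against 2649.9, 483, 112, 194 and 396 CPM. Both classes had *Il12rb2* (191 and 251 CPM), *Ifng* (262 and 169 CPM), *Cd7* (427 and 396 CPM), *Ctsw* (520 and 391 CPM) and low *Gata3* (126 and 183 CPM). Of 5873 genes with at least 20 CPM in either class there, 9.76% were at least 2-fold higher in the 66 cells and 8.14% at least 2-fold lower. Of the 15 genes with the largest naïve ratios 11 reached that level, and 8 of these were at least 2-fold higher. Of the 15 with the smallest ratios 7 reached it, and all 7 were at least 2-fold lower. The culture, the tumour and the library differ together between these cells and the naïve ones, so that their parts cannot be told apart.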

How the data were processed

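The authors counted UMIs of 5 libraries (10x Genomics 3' chemistry) with Cell Ranger, whose version is 6.0.0 in the header of the naïve matrix and 3.0.2 in the others, and deposited raw counts per gene and barcode. The submitters' processing notes name GRCm38 and Seurat 3. Cells needed 200 genes and a mitochondrial share under 5%, over the 27726 genes common to all matrices. The members, the 26 gene lists and the alternatives were chosen with earlier results of these data known. Counts were summed per class as CPM, with 5 CPM added for ratios, for genes with at least 20 CPM in either class. Named were the 10 genes of the rule, list genes with high levels, large ratios or a role in telling cell types apart, and the 15 largest and 15 smallest ratios at 50 CPM or more, without mitochondrial and ribosomal protein genes. Thinning to 2000 UMIs left out 2 members and 127 *Il1rl1*+ cells. No test was run, since 1 naïve library has no replicate. No doublet caller was run, and the sort gated doublets by pulse width. A count of 0 allows up to 3 counts. The sums and ratios were tested on simulated data. Definitions of the class, filters, added levels and reference cells were varied. Some genes of the lists are not reported here. Python 3.11.15, numpy 2.4.6, scipy 1.17.1, pandas 2.3.3 and matplotlib 3.10.9 were used.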

Additional observations from a re-analysis of the deposited data

How the results depend on the processing

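The rule gave 283 cells with at least 2 of the 9 genes in place of 155, and between 108 and 189 under the other 7 versions of the rule or its filters, apart from the settings below that leave out members by their transcripts. The 690 genes at least 2-fold higher became 1040 without the members that had 2 or more T cell receptor and CD3 genes and 414 with 20 CPM added. The 367 genes at least 2-fold lower became 568 with cells thinned to 2000 UMIs before the rule, 560 without those members and 229 with 20 CPM added. Leaving out those members removed 117 of the 155 cells and so left fewer UMIs per gene. The 85 cells with 2 or more T cell receptor and CD3 genes became 48 with 3 genes required and 23 with *Cd3d*, *Cd3e*, *Trac* and *Trdc* alone, and the 12 cells with 2 or more class II genes became 6 at 1000 UMIs and 19 without thinning. Of 151 genes followed under 16 settings, 69 of 2416 log2 ratios had the other sign, and 20 of these belonged to genes at least 2-fold higher or lower at first. Without the members that had 2 or more T cell receptor and CD3 genes these were *Ifitm1* (-0.093), *Cd3d* (-0.84), *Cd3e* (-1.58), *Trac* (-0.97), *Tcrg-C1* (-0.80), *Themis* (-1.90) and *Mki67* (-0.27), and *Trbc1* (-0.82), *Trbc2* (-1.17) and *Pdcd1* (-2.11), within 2-fold at first, were also below 0. Without those with any UMI of *Cd3d*, *Cd3e*, *Trac* or *Trdc*, a split chosen after seeing the data, they were *Ifitm1* (-0.093), *Cd3d* (-0.84), *Cd3e* (-1.58), *Trac* (-0.97), *Trdc* (-0.95) and *Themis* (-0.27). Without members that had 2 or more class II genes, *H2-Aa* (-1.001), *H2-Ab1* (-0.93) and *Cd74* (-0.16) changed sign. Without members that had 2 or more cell-cycle genes, also chosen after seeing the data, *Mki67* (-0.46), *Stmn1* (-0.52) and *Top2a* (-0.35) did, and the log2 ratio of Top2a (-0.0634) did with thinning before the rule. Where members were left out for the genes of a list, the *Il1rl1*+ cells were not filtered alike. The sign changes of T cell receptor, CD3, class II and cell-cycle genes under the filter on their own list therefore follow from it. The causes of the other sign changes were not tested. These include *Mki67* without the members that had 2 or more T cell receptor and CD3 genes, and *Top2a* with thinning before the rule. The cause of the changes in counts under 20 CPM added is that a larger added level shrinks ratios of low genes. No paired analysis was possible because the results come from no test and 1 naïve library. Depth limits genes under about 3.28 CPM, which is 3 UMIs over the 155 cells.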
